A study of Mus musculus with 6 samples.

Results

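Embryoid bodies of the Tet triple knockout line TKO_29 were set against wild-type (WT) embryoid bodies across all genes of an expression array. All arrays labelled as derived from the stem cell line TKO#29 and all those labelled as derived from wild-type stem cells were used, which made 4 of the 6 arrays of the series. The TKO_29 genotype was a knockout of Tet1, Tet2 and Tet3. Both groups had a mixed 129/C57BL6 background, no treatment and the same culture. Mouse embryonic stem cells were kept without the self-renewal factor LIF for 2 days in hanging drops and then for 8 days in nonadherent plates, and RNA was taken at day 10. The other 2 arrays came from a separate knockout line, TKO_26, grown in the same way. Each line had 2 arrays, which the series calls technical replicas, so the comparison is of 1 TKO line with 1 WT line. Its p-values measure the spread between arrays and not the spread between lines of a genotype.

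TET1, TET2 and TET3 are dioxygenases that oxidise 5-methylcytosine in DNA, mostly at CpG dinucleotides, and so start the removal of the methyl mark. Stem cells express mainly Tet1 and Tet2, and Tet3 is known from the oocyte and from differentiated tissue. An embryoid body is an aggregate of differentiating stem cells in which tissues of all germ layers can appear, among them primitive blood, vessels, beating cardiac muscle and yolk sac endoderm. In such a mixed tissue, fewer cells of a type and less RNA per cell cannot be told apart.

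Because the missing enzymes act at CpG sites, the 250 bases before the RefSeq start of 6 genes of this comparison are shown with each CpG in capitals (assembly GRCm38.p6, 5′ to 3′ on the gene's strand). Hbb-y, chr7:103853208-103853457 on the minus strand, and Hba-x, chr11:32276350-32276599 on the plus strand, encode embryonic globins that were not well above background in TKO_29. Myl7, chr11:5898783-5899032 on the minus strand, and Hand2, chr8:57320733-57320982 on the plus strand, are a contractile and a regulatory gene of the heart that fell. Epcam, chr17:87635729-87635978 on the plus strand, and Nlrp4f, chr13:65205717-65205966 on the minus strand, are an epithelial and an oocyte gene that rose.
Hbb-y: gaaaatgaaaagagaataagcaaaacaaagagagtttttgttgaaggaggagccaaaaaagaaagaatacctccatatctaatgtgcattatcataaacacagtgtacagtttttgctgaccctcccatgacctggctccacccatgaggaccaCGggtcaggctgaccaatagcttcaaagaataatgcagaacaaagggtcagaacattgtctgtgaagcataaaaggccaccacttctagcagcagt
Hba-x: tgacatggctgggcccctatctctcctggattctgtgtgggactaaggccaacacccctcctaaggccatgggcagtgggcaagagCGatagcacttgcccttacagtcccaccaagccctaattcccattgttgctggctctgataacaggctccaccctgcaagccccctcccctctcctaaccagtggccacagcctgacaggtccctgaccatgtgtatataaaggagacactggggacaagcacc
Myl7: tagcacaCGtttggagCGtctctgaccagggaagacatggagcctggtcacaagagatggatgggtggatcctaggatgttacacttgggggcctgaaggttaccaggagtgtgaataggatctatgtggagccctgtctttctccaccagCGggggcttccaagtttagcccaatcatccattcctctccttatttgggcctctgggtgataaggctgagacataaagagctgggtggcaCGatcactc
Hand2: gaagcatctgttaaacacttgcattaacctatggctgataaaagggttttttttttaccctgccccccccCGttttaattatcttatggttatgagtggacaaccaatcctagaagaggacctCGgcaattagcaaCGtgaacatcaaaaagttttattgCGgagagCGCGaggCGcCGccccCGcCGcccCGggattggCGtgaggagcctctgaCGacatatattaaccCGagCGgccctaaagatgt
Epcam: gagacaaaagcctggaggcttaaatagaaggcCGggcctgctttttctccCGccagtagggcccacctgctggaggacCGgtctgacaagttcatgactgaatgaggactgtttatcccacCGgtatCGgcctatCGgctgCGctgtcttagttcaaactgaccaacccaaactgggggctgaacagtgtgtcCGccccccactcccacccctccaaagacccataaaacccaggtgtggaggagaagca
Nlrp4f: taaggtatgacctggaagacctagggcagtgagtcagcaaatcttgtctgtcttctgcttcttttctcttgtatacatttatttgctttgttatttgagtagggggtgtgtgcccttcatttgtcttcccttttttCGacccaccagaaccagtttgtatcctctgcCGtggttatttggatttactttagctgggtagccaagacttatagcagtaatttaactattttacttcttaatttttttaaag

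Hbb-y and Hba-x each held 1 CpG in this window, Nlrp4f held 2, Myl7 held 4, Epcam held 8 and Hand2 held 15. The median over 27018 promoters of the RefSeq table was 6. Genes that fell and genes that rose thus stood on both sides of that median. The letters TATAAA, searched on both strands, were found in the window of Hba-x and in 12.97% of all promoters. AGATAA, the letters of a form of the GATA factor site, were found in the window of Hand2 and in 10.3% of all promoters. Other forms of that site were not searched, so windows without AGATAA may still hold such a site. Only 11561 of the 14573 tested genes with a symbol had a promoter in the table, too few for a comparison of promoters between gene sets, so none is given. Methylation was not measured in these samples.

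The arrays were read as normalised log2 signal, the log2 of the scanner's processed spot signal minus the array's own 75th percentile, taken over those 19178 probes whose signal exceeded background on every array. A value of 0 is therefore a bright probe, and a difference of 1 is a 2-fold change. On WT arrays 42.8% and 51.1% of spots were well above background, and on TKO_29 arrays 55.8% and 53.1%. The TKO_29 arrays were also the brighter ones before scaling, with 75th percentiles of the processed signal of 2208 and 1130 against 507 and 888 in WT, and replicate 1 of TKO_29 had the most saturated spots, 2528. A saturated spot has a ceiling, which lies lower after scaling on a brighter array. For 1777 of the features tested the line that came out lower had a saturated array, and their direction is not read here. All arrays lay on 1 slide, WT in slide column 1 and both TKO lines in slide column 2, so slide position and genotype cannot be told apart. For 13259 genes with unsaturated signal on every array, the SD of the log2 difference was 0.30 between the WT arrays, 0.23 between the TKO_29 arrays and 0.88 between the line means.

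The targeted genes were checked for the label. Tet1 lay at -0.93 and -1.21 in WT and at -2.69 and -2.81 in TKO_29, a fall of 3.22-fold (log2 difference -1.69, SE 0.15, limma adjusted p = 0.00279). A dimmer Tet1 probe differed by 0.23, and with the mean of both probes the difference was -0.73 and no longer called. Tet2 fell 3.74-fold, from -2.84 and -2.59 to -4.73 and -4.51 (adjusted p = 0.00206), and its other probe differed by -1.50. The brightest probes of both genes were thus lower in TKO_29 and still above background on both of its arrays. Tet3 was not called on its brightest probe, with -5.87 and -6.20 in WT and -6.86 and -6.44 in TKO_29 (difference -0.62, adjusted p = 0.222). Another Tet3 probe had signal above background in WT and on no TKO_29 array, and the last of its probes differed by -1.60. The sources used here do not give the deleted exons or where the probes lie in the transcripts, so a probe may lie outside the deletion and then checks nothing.

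Of 21393 features tested, 14573 with a gene symbol, limma called 1753 higher and 2404 lower in TKO_29 at an adjusted p under 0.05 and at least a 2-fold difference, 8.19% and 11.2% of the features (19.4% either way). After quantile normalisation, which moved the median difference of all features by 0.15, the calls were 1961 higher and 1786 lower, so that the higher share was 52.3% in place of 42.2%. Among 15113 features above background on all 4 arrays and saturated on none, 242 fell at least 8-fold and 16 rose at least 8-fold. The lowest signal well above background was -6.93 and -8.18 on the WT arrays and -9.80 and -9.15 on the TKO_29 arrays, so this requirement left out large rises more than large falls. Another 168 of the features that fell were above background on no TKO_29 array, and 411 of those that rose were above background on no WT array. For such genes a fold is a lower bound, the brighter line against the lowest signal well above background in the dimmer one. They were tested only because the brighter line had signal, here and in every list below, which favoured their direction. The bound was under 2-fold for 372 of the higher calls and for none of the lower calls. Leaving out each of the 4 arrays in turn kept 2203 of the calls in all 4 cases, 789 higher and 1414 lower. Without TKO_29 replicate 2 the higher calls numbered 955, and without TKO_29 replicate 1 they numbered 1023.

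**Figure D1:**
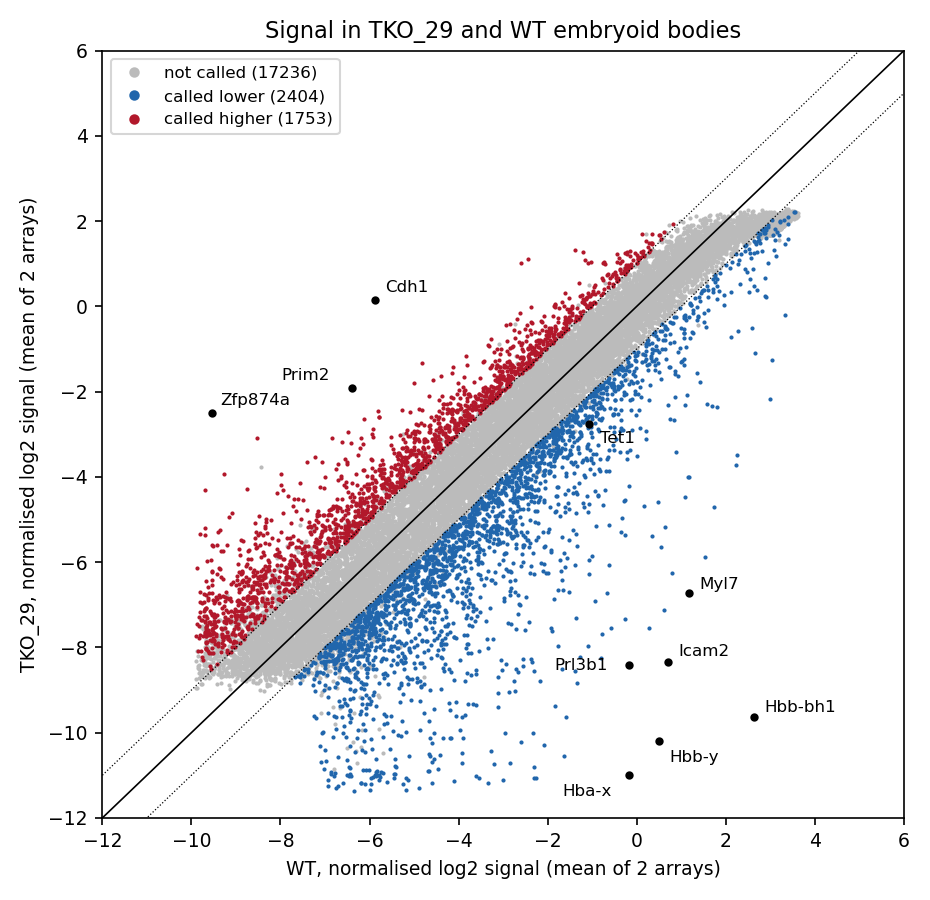
Mean normalised log2 signal of the 2 arrays of TKO_29 (vertical axis) against that of the 2 WT arrays (horizontal axis) for the 21393 features tested, with 1753 called higher in red and 2404 called lower in blue. The solid line marks equal signal, dotted lines mark 2-fold, black points are named genes, and the flat upper edge of the cloud is the saturation ceiling.

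The 12 largest falls among genes measured on all 4 arrays included genes known from vessels, heart, blood and placenta. Icam2, an adhesion protein of endothelium, lay at 0.62 and 0.78 in WT and at -8.19 and -8.50 in TKO_29, 529-fold lower (SE 0.18 on the log2 scale, adjusted p = 0.000245). Myl7, the atrial myosin light chain, went from 1.10 and 1.25 to -6.53 and -6.92, 239-fold lower (adjusted p = 0.000255). WT arrays stood far above TKO_29 arrays in each case, and the arrays of each line lay close together. Cd93, an endothelial receptor, was 227-fold lower and Hand2, a transcription factor of the developing heart, 125-fold lower. Hapln1, a link protein of the hyaluronan matrix, was 125-fold lower as well. The adult alpha globin genes Hba-a2 and Hba-a1, whose near-identical sequences the probes may not tell apart, were 172-fold and 134-fold lower. The remaining 5 were placental, Prl3b1 (305-fold), Prl7d1 (214-fold) and Prl2b1 (120.0-fold) of the prolactin family and the cathepsins Ctsr (174-fold) and Ctsj (133-fold).

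**Figure D2:**
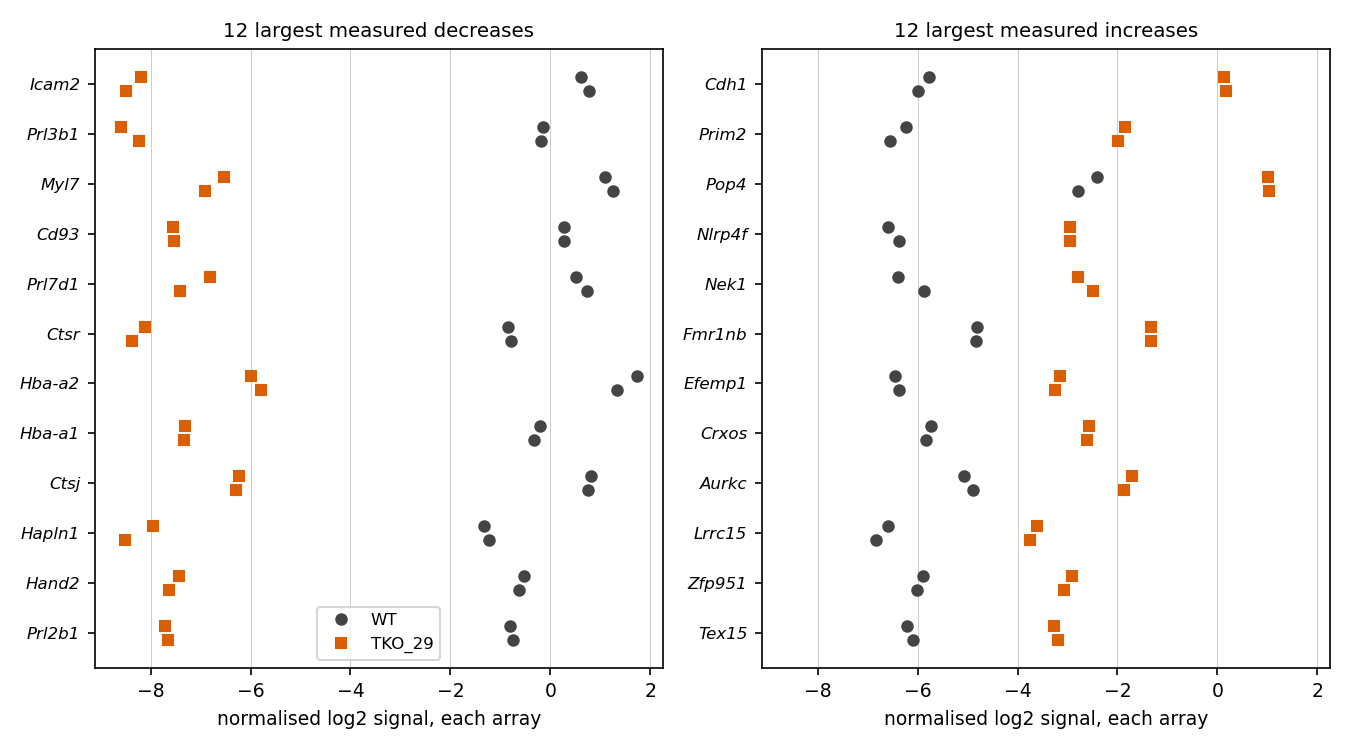
Normalised log2 signal on each of the 2 WT arrays (circles) and 2 TKO_29 arrays (squares) for the 12 genes with the largest falls (left) and the 12 with the largest rises (right) among genes measured on all 4 arrays. The arrays of the lines do not overlap for any of these genes, and Icam2 and Cdh1 stand at the top of their panels.

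The 12 largest rises were smaller and were led by E-cadherin. Cdh1, the adhesion protein of epithelia and stem cells, lay at -5.77 and -6.00 in WT and at 0.13 and 0.17 in TKO_29, 65.8-fold higher (log2 difference 6.04, SE 0.13, adjusted p = 0.000245). Prim2, the large subunit of DNA primase, went from -6.23 and -6.55 to -1.84 and -1.99, 22.3-fold higher. Pop4, a protein of ribonuclease P, went from -2.41 and -2.78 to 1.01 and 1.04, 12.3-fold higher. The WT signals of Cdh1 and Prim2 were low but above background on both arrays. Several of the others are known from germ cells or the early embryo, namely Nlrp4f of the oocyte (11.6-fold), Fmr1nb of the testis (11.2-fold), the homeobox gene Crxos (9.18-fold), the meiotic kinase Aurkc (9.18-fold) and Tex15, needed for meiosis in the male germ line (7.54-fold). The kinase gene Nek1 (11.2-fold), the matrix protein gene Efemp1 (9.25-fold), Lrrc15 (8.17-fold) and the zinc finger gene Zfp951 (7.83-fold) made up the 12. For Tex15 a second probe was not above background on any of the 4 arrays.

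Among named genes the largest falls were those of embryonic globins, which were above background on no TKO_29 array. The embryonic beta-like globin Hbb-bh1 lay at 2.67 and 2.62 in WT and was not well above background in TKO_29, at least 3901-fold lower. Hbb-y and Hba-x, whose promoters are printed above, were at least 965-fold and 630-fold lower (bounds, adjusted p = 0.00138 and 0.00101). Among the bounds, the vascular genes Gimap6 (at least 181-fold), Stab1 (at least 167-fold) and Tie1 (at least 144-fold) followed. With them were the placental Prl7b1 (at least 147-fold) and Ctsq (at least 144-fold), the water channel Aqp8 (at least 141-fold) and Nepn (at least 118-fold). In the other direction the bounds were smaller. The zinc finger gene Zfp874a, not well above background in WT, lay at -2.44 and -2.57 in TKO_29, at least 33.0-fold higher. Serpina3m and Crisp3, both of secreted protein families, were at least 12.3-fold and 9.67-fold higher, and the Ets factor Spic at least 9.46-fold. Nuggc, Slc22a6, Sgo2b, Pramel7, Bhmt and Ccnb1ip1 rose at least 6.55-fold to at least 4.77-fold.

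Of 20 red cell genes listed 13 were tested, and 9 fell and 1 rose, with a median log2 difference of -2.85 beside -0.09 over all features tested. Of these 13, 5 were above background in WT only, so their direction was fixed by the filter, and of the 8 measured on all 4 arrays 4 fell. Besides the globins, Alas2, the first enzyme of haem synthesis in red cells, was at least 19.5-fold lower, Nfe2, a globin transcription factor, differed by -2.85, and the anion exchanger Slc4a1 by -1.90. Klf1, the master regulator of adult red cells, fell less (-1.21). The transferrin receptor Tfrc, which most dividing cells carry, differed by 0.03 and was not called. Rhd rose by 1.08, a call that was lost when any 1 of the 4 arrays was left out.

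Factors of blood progenitors fell in 12 of 16 tested genes and rose in none, with a median of -1.42. The share that fell was 75%, beside 11.2% of all features. Of these 16, 13 were above background on all 4 arrays. Another was above background on no TKO_29 array and passed the filter through WT alone, which fixed its direction. With signal required on all 4 arrays 9 fell. Lyl1, a partner of Tal1 in blood and vessel precursors, lay at -1.07 and -1.10 in WT and at -7.96 and -7.97 in TKO_29 (118-fold lower, adjusted p = 0.000245). Cd34, a surface protein of progenitors and endothelium, went from 0.34 and 0.33 to -5.27 and -5.49, 52.6-fold lower. Tal1 itself was at least 59.8-fold lower, and the platelet chemokine Pf4 at least 38.6-fold. The progenitor genes were not uniform, since Runx1 (-0.23), Kit (-0.59) and Myb (-0.01), which act in definitive blood, were not called. With normexp background correction 6 of the list fell, and with the authors' matrix 7. Macrophage genes were fewer, 9 of 21 tested, with 4 lower and 2 higher. These shares were 44.4% and 22.2%, beside 11.2% and 8.19% of all features. Of these 9, 5 were above background on all 4 arrays, with 2 of the falls among them. Another was above background on no WT array and passed the filter through TKO_29 alone, which fixed its direction. Among the macrophage genes the mannose receptor Mrc1 was at least 25.3-fold lower. The receptor Csf1r fell 2.89-fold on its brightest probe and differed by -0.74 and -0.16 on its other probes. Its call was lost with the mean of the tested probes. The integrin Itgam fell 4.05-fold, a call lost without WT replicate 1 or TKO_29 replicate 1, when 2 of the list were called lower. The Fc receptor Fcgr3 rose at least 2.25-fold, a call lost without any 1 of the 4 arrays.

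Endothelial genes fell almost throughout, 26 of 28 tested, and none rose (median -3.44). Of these 28, 21 were above background on all 4 arrays. Another 5 were above background on no TKO_29 array and passed the filter through WT alone, which fixed their direction. With signal required on all 4 arrays 19 fell. Tie1 and Stab1 were below background in TKO_29, and so was Sox7 (at least 90.9-fold lower). VE-cadherin, Cdh5, which seals endothelial junctions, lay at -0.79 and -1.07 in WT and at -7.00 and -6.84 in TKO_29, a log2 difference of -5.99. Sox18, the receptor Robo4 and the adhesion protein Esam differed by -5.72, -4.90 and -4.99. The VEGF receptors changed less, Kdr by -1.16 and Flt1 by -1.65, and the early regulator Etv2 by -1.34. Thus genes of mature vessels and of their precursors were both among the falls, at different sizes. Pecam1 (0.57) and Sox17 (-0.65) were not called. Egfl7 was called lower but was saturated in TKO_29, so that its difference is not read.

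Heart muscle genes were lower at the level of both contractile proteins and regulators. Of 21 sarcomere genes tested 17 fell and none rose, with a median of -3.83. Tnnt2, cardiac troponin T, lay at 1.73 and 1.77 in WT and at -4.73 and -4.69 in TKO_29 (87.7-fold lower, adjusted p = 0.000245). Myh6, the alpha myosin heavy chain, went from 2.24 and 2.21 to -3.67 and -3.78, 61.7-fold lower, and Myl2, the ventricular light chain, was 66.2-fold lower. TKO_29 kept some signal of these genes, well above background on both arrays. Cardiac actin, Actc1, was saturated in WT, and its difference of -5.17 is therefore a lower limit of the fall. Tnni3 (-0.44) and skeletal actin Acta1 (-0.03) were not called.

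Among cardiac transcription factors 11 of 16 fell and none rose (median -2.63). Myocd, a coactivator of muscle genes, was 36.0-fold lower and Hand1 19.4-fold lower. Mef2c was at least 12.8-fold lower, a call lost without either TKO_29 array. Nkx2-5, Tbx5, Tbx20 and Gata4, central regulators of the heart, differed by -2.65, -2.96, -3.93 and -2.56. The second heart field gene Isl1 (-0.69) and Gata5 (-0.60) were not called. Of 8 genes of conduction, calcium handling and natriuretic peptides 7 fell. The gap junction gene Gja5 was at least 98.6-fold lower, Nppa, atrial natriuretic peptide, 30.4-fold, Popdc2 13.4-fold and the potassium channel Kcnj5 11.9-fold.

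Of 9 smooth muscle genes tested 3 were called lower (33.3%, beside 11.2% of all features), with a median of -0.61. Actg2, enteric actin, was 20.3-fold lower and Synpo2 25.2-fold, the latter a call lost when any of the 4 arrays was left out. Acta2, saturated in WT, fell at least 3.80-fold. Without TKO_29 replicate 1 only 1 of the list was called. Cnn1 (-0.83), Smtn (-0.41) and Des (0.03) were not called.

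All 13 tested genes of the placental prolactin and cathepsin families fell, out of 26 listed (median -6.91). Prl3b1, placental lactogen of late gestation, lay at -0.15 and -0.19 in WT and at -8.60 and -8.24 in TKO_29. Prl3d1, the lactogen of trophoblast giant cells, differed by -6.01, and Prl4a1 was at least 177-fold lower. Of the 13, 7 were measured on all 4 arrays. The other 6, of which 4 were above background on no TKO_29 array, passed the filter through WT alone, which fixed their direction. These families hold many similar copies, so probes may share signal. Among regulators of trophoblast 4 of 18 fell (22.2%, beside 11.2% of all features) and none rose (median -0.55). Elf5 was at least 20.5-fold lower, Cdx2 7.47-fold, Hand1 19.4-fold and Gata2 2.26-fold, the last a call lost without 3 of the 4 arrays in turn. Eomes (0.07), Tfap2c (-0.05) and Krt8 (0.06), which mark trophoblast among other tissues, were not called.

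The yolk sac programme of secreted proteins was lower in 15 of 20 genes, 75% beside 11.2% of all features. It was higher in 1, and the median was -2.34. Of these 20, 17 were above background on all 4 arrays and 2, Apob among them, on no TKO_29 array. Those 2 passed the filter through WT alone, which fixed their direction. Transthyretin, Ttr, lay at -0.27 and -0.24 in WT and at -5.33 and -5.40 in TKO_29 (34.5-fold lower, adjusted p = 0.000315). Alpha-fetoprotein, Afp, was at least 58.0-fold lower and Apob at least 23.8-fold. Cubilin, Cubn, the endocytic receptor of visceral endoderm, was 73.8-fold lower, from -1.86 and -1.66 to -7.94 and -8.00. Its partner amnionless, Amn, differed by -2.37, while the related receptor Lrp2 rose by 1.23, a call lost without any 1 of the 4 arrays. Endoderm transcription factors moved in fewer members, 6 of 16 lower and 1 higher (median -0.65). Sox7, Hnf4a (9.16-fold), Gata4 (5.88-fold) and Gata6 (-2.06) fell, whereas the definitive endoderm genes Foxa2 (-0.02), Foxa1 (-0.05) and Sox17 (-0.65) were not called. Gsc, the organiser gene goosecoid, rose 2.80-fold.

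Genes of mesenchyme, which feeder fibroblasts would also express, fell in 14 of 21 and rose in none (median -1.70). Twist2 was 18.8-fold lower, Meox1 15.9-fold, Foxc2 9.65-fold and the PDGF receptor Pdgfrb 8.44-fold. Vim (-1.79), Zeb1 (-1.62), Snai2 (-2.83) and Snai1 (-1.02), known from epithelial to mesenchymal transition, were among the falls. Fap (-0.09), Thy1 (0.69) and S100a4 (-0.61), also found on fibroblasts, were not called. Their part in the other differences was not tested.

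Matrix genes followed in part, with 11 of 23 collagens and other matrix genes lower and none higher (median -0.97), 1 of them, fibronectin Fn1, saturated in TKO_29 so that its direction is not read. Col9a1, a cartilage collagen, was 15.2-fold lower, Col14a1 7.92-fold, fibrillin Fbn1 7.26-fold and Col3a1 4.93-fold, from 1.16 and 0.86 to -1.34 and -1.25. The fibrillar and beaded collagens Col1a1 (-0.41), Col1a2 (0.28) and Col6a1 (0.24) were not called, so the falls did not cover all collagens. Basement membrane and parietal endoderm genes fell in 6 of 16 (median -0.84). The proteoglycan Srgn was 9.33-fold lower, the laminin chain Lama1 5.89-fold and the parathyroid hormone receptor Pth1r 3.30-fold. Nid1 fell 3.08-fold on its brightest probe, but another probe differed by 0.71 and the call was lost with the mean of its tested probes.

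Epithelial genes moved the other way, and Cdh1 stood apart in size. Of 26 tested 5 rose and 2 fell, with a median of 0.43. Epcam, a surface protein of epithelia and stem cells, lay at -0.88 and -0.62 in WT and at 0.56 and 0.67 in TKO_29 (2.58-fold higher, adjusted p = 0.00412). The tight junction genes Cldn3 (1.33), Ocln (1.21) and Tjp3 (1.05) made up the rest of the rises. The falls were N-cadherin, Cdh2, from 1.61 and 1.51 to -0.54 and -0.45 (4.14-fold lower), and the mesenchymal cadherin Cdh11 (4.56-fold). Most other members had small positive differences that were not called, among them Esrp1 (0.86), Cldn4 (0.51) and Grhl2 (0.17).

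Pluripotency genes rose in 11 of 28 and fell in none (median 0.53, and 1.01 over the 22 without saturation, beside -0.01 over all features without it). Dppa3, a protein of germ cells and the early embryo, lay at -3.54 and -3.34 in WT and at -1.36 and -1.25 in TKO_29, 4.41-fold higher (adjusted p = 0.00153). Nanog rose 3.38-fold on its brightest probe, from -3.34 and -2.94 to -1.48 and -1.29. A dimmer Nanog probe differed by -0.48, and the call was lost with the mean of both. Tcl1 (3.29-fold), Prdm14 (3.00-fold) and Sox2 (1.40) also rose. Oct4, Pou5f1, differed by 0.60 and was not called, and Zfp42 (-0.93) and Tbx3 (-0.90) were lower without a call. Without the filter on dim probes 7 of the list were called.

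Germ cell genes rose in 9 of 22 and fell in 1, with a median of 0.66 (0.55 with unmeasured members at their bound). Of these 22, 14 were above background on all 4 arrays. Another 3 were above background on no WT array and passed the filter only through TKO_29, which fixed their direction. Besides Tex15, the meiotic genes Ccnb1ip1 (at least 4.77-fold) and Stra8 (at least 3.93-fold), the kinase gene Stk31 (at least 4.07-fold) and Dazl, which encodes an RNA-binding protein (at least 3.08-fold), rose. Ddx4 differed by 1.72 and Rec8 by 1.48. Sycp3 (0.61), Mael (0.93) and Smc1b (0.15) were not called, so the rise was limited to some of the list. With signal required on all 4 arrays 5 were called.

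Genes of the oocyte and the 2-cell embryo rose in 10 of the 13 tested, out of 25 listed, and Gdf9 fell. Of these 13, 7 were above background on no WT array and thus passed the filter only through TKO_29, so their direction was fixed by the filter. Obox6 (at least 4.58-fold), Pramel7 (at least 4.95-fold) and Pramel6 (at least 3.54-fold) were among them. Nlrp4f, above background on all 4 arrays, lay at -6.60 and -6.37 in WT and at -2.96 and -2.94 in TKO_29. With signal required on all 4 arrays 3 of the list were called.

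Neural genes divided. Of 25 tested 8 rose and 3 fell, with a median of 0.29. The early neural factors Sox1 (3.74-fold), Six3 (3.22-fold) and Pax6 (at least 2.16-fold) rose, with adjusted p of 0.0203, 0.0496 and 0.0430. Each of these 3 calls was lost when any 1 of the 4 arrays was left out. Pax3 (1.67), Sox3 (1.24) and Zic1 (1.14) were called as well. The falls included neuronal tubulin Tubb3 (4.36-fold, lost without TKO_29 replicate 1) and the adhesion protein Ncam1 (-1.64). Between 3 and 4 of the list were called higher when an array was left out. In the neural crest list 5 of 15 rose and 5 fell (median -0.38). These shares, 33.3% each, stand beside 8.19% and 11.2% of all features. Of these 15, 12 were above background on all 4 arrays and 2 on no WT array. Those 2 passed the filter through TKO_29 alone, which fixed their direction. For 2 of the rises the bound was under 2-fold. Erbb3 (at least 2.87-fold, lost without TKO_29 replicate 2) and Pax7 (at least 1.80-fold) rose, and Snai2 (7.12-fold) and the endothelin receptor Ednrb (5.22-fold) fell.

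Hox genes, which set position along the body axis, fell in 11 of the 15 tested out of 38 on the array, and none rose. Hoxb4 lay at -2.78 and -2.89 in WT and at -6.80 and -6.57 in TKO_29, 14.4-fold lower, and Hoxb2 was 13.1-fold lower. Hoxb5 and Hoxb8 were at least 17.3-fold and 8.14-fold lower, calls lost without WT replicate 1 or TKO_29 replicate 1. Hoxb6 fell as well (at least 6.51-fold). The 5 Hox genes measured on all 4 arrays all fell, and the larger falls among them were those of Hoxb4 and Hoxb2. Hoxb5, Hoxb6 and Hoxb8 passed the filter through WT alone, which fixed their direction, and the 3 other falls, Hoxa7, Hoxb7 and Hoxd8, were above background on 1 WT array and passed it through TKO_29. The other Hox falls lay between -1.11 and -1.47, and 6, 4 and 5 of the list were called with quantile normalisation, normexp and the authors' matrix. Of 19 primitive streak and Nodal genes 2 were higher and 2 lower (median 0.18). These shares, 10.5% each, were near those of all features (8.19% and 11.2%). Mesp1, an early mesoderm regulator, was 6.14-fold lower and the Nodal coreceptor Cfc1 3.36-fold lower, and brachyury, T, differed by 0.62 without a call. The other coreceptor, Tdgf1, rose 2.02-fold, a call lost without 3 of the 4 arrays in turn.

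Imprinted genes, expressed from a single parental allele, fell in 14 of 31 and rose in 1 (median -1.04, and -0.87 over those without saturation). Plagl1, a zinc finger regulator of growth, lay at 2.33 and 2.18 in WT and at -3.54 and -3.44 in TKO_29 (53.7-fold lower, adjusted p = 0.000358). The amino acid transporter Slc38a4 was 19.4-fold lower, Dlk1 8.58-fold and Impact 7.50-fold, and Igf2, the fetal growth factor, differed by -2.11. Plagl1, Slc38a4, Dlk1 and Impact are known to be expressed from the paternal allele. Grb10 (-1.18) and Igf2r (-1.30), maternally expressed in most tissues, fell too, and Snrpn rose by 2.11. Cdkn1c and Mest were called lower but saturated in TKO_29. The lower calls numbered 8 without TKO_29 replicate 1.

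Of 22 tested genes that write, read or remove DNA methylation, 3 fell (13.6%) and 1 rose (4.55%), beside 11.2% and 8.19% of all features, with a median of -0.25 (-0.07 over those without saturation). Besides Tet1 and Tet2 the fall was in Mbd1, a reader of methylated CpG (2.25-fold), whose other probe differed by 0.26, and the call was lost with the mean of both. The maintenance enzyme Dnmt1 (0.10), Dnmt3l, a cofactor of the de novo enzymes (0.32), the glycosylase Tdg (-0.14) and the de novo enzyme Dnmt3a (-0.98) were not called, and Dnmt3b was saturated in TKO_29.

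Replication genes rose in 5 of 34 and fell in none, with a median of 0.18 and of 0.72 over the 21 without saturation. After Prim2 came Cdc45 of the replicative helicase (at least 3.97-fold), the polymerase alpha subunit Pola2 (4.26-fold) and Orc1 of the origin complex (2.96-fold, from -4.09 and -3.97 to -2.53 and -2.41). Without TKO_29 replicate 2 the calls of Cdc45 and Pola2 were lost. Mitosis genes rose in 5 of 19 (median 0.28, and 0.85 over the 12 without saturation). The spindle motor Kif11 rose 2.68-fold, the checkpoint kinase Bub1b 2.12-fold, the centromere histone Cenpa 2.10-fold and Cenpf at least 2.47-fold. Leaving out the WT array or the TKO_29 array numbered 1 left 3 calls in this list, and leaving out TKO_29 replicate 2 left 2. In glycolysis and hypoxia 15 of 28 genes were saturated on an array, and over the other 13 the median was 0.71. Beside these unsaturated medians, that of the 3 unsaturated genes in a list of 14 that most cells express was 0.96, and its part in these rises was not tested. The hypoxia target Ankrd37 rose 3.95-fold, hexokinase Hk2 2.73-fold, Pfkl 2.63-fold (lost without WT replicate 2 or TKO_29 replicate 2) and Pdk1 2.27-fold.

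In the BMP list, which covers ligands, antagonists and targets, 8 of 19 fell and 2 rose (median -0.70). Bmp4, the ligand that patterns mesoderm, lay at 0.87 and 0.59 in WT and at -1.44 and -1.40 in TKO_29, 4.44-fold lower. The target and inhibitor Smad6 was 3.73-fold lower and the ligand Bmp5 3.05-fold. Noggin, Nog, an antagonist, differed by 1.01 and Grem1 by 1.14, both called higher. Ligands and targets were thus among the falls.

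In the Wnt list 2 of 21 rose (9.52%) and 3 fell (14.3%), shares near those of all features (8.19% and 11.2%). The secreted inhibitors differed among themselves, since Sfrp4 rose at least 8.26-fold while Sfrp5 fell 5.51-fold and Dkk2 at least 6.71-fold, and the target Lgr5 fell 3.01-fold. Of 17 Notch genes 5 fell (29.4%, beside 11.2% of all features) and none rose. Among the falls were Heyl (8.11-fold), Hey1 (4.18-fold), Notch4 of endothelium (5.26-fold, lost without any 1 of the 4 arrays) and the inhibitory ligand Dlk1. Notch1 (0.09) and Hes1 (-0.31) were not called. Of 15 retinoic acid genes 4 fell (26.7%) and 2 rose (13.3%), beside 11.2% and 8.19% of all features. The degrading enzyme Cyp26b1 was 5.72-fold lower, the synthesising enzyme Aldh1a2 4.13-fold and the receptor Rarb 3.22-fold on its brightest probe, whose other probe differed by -0.11 (the call was lost with the mean of both), while the receptor Rarg rose 2.23-fold.

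Interferon-stimulated genes, which many cells induce on sensing viral or other cytosolic nucleic acid, fell in 11 of 20 and rose in 1 (median -1.33). Isg15 lay at 0.75 and 0.66 in WT and at -2.29 and -2.35 in TKO_29 (8.15-fold lower, adjusted p = 0.000835). Rsad2 differed by -3.70, Ifit3 was 6.01-fold lower and Ifit1 5.29-fold lower. The immunoproteasome subunit Psmb8 differed by 2.04 and was called higher. Ifit2 (-0.50), Irf9 (-0.27) and H2-K1 (0.12) were not called.

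**Figure D3:**
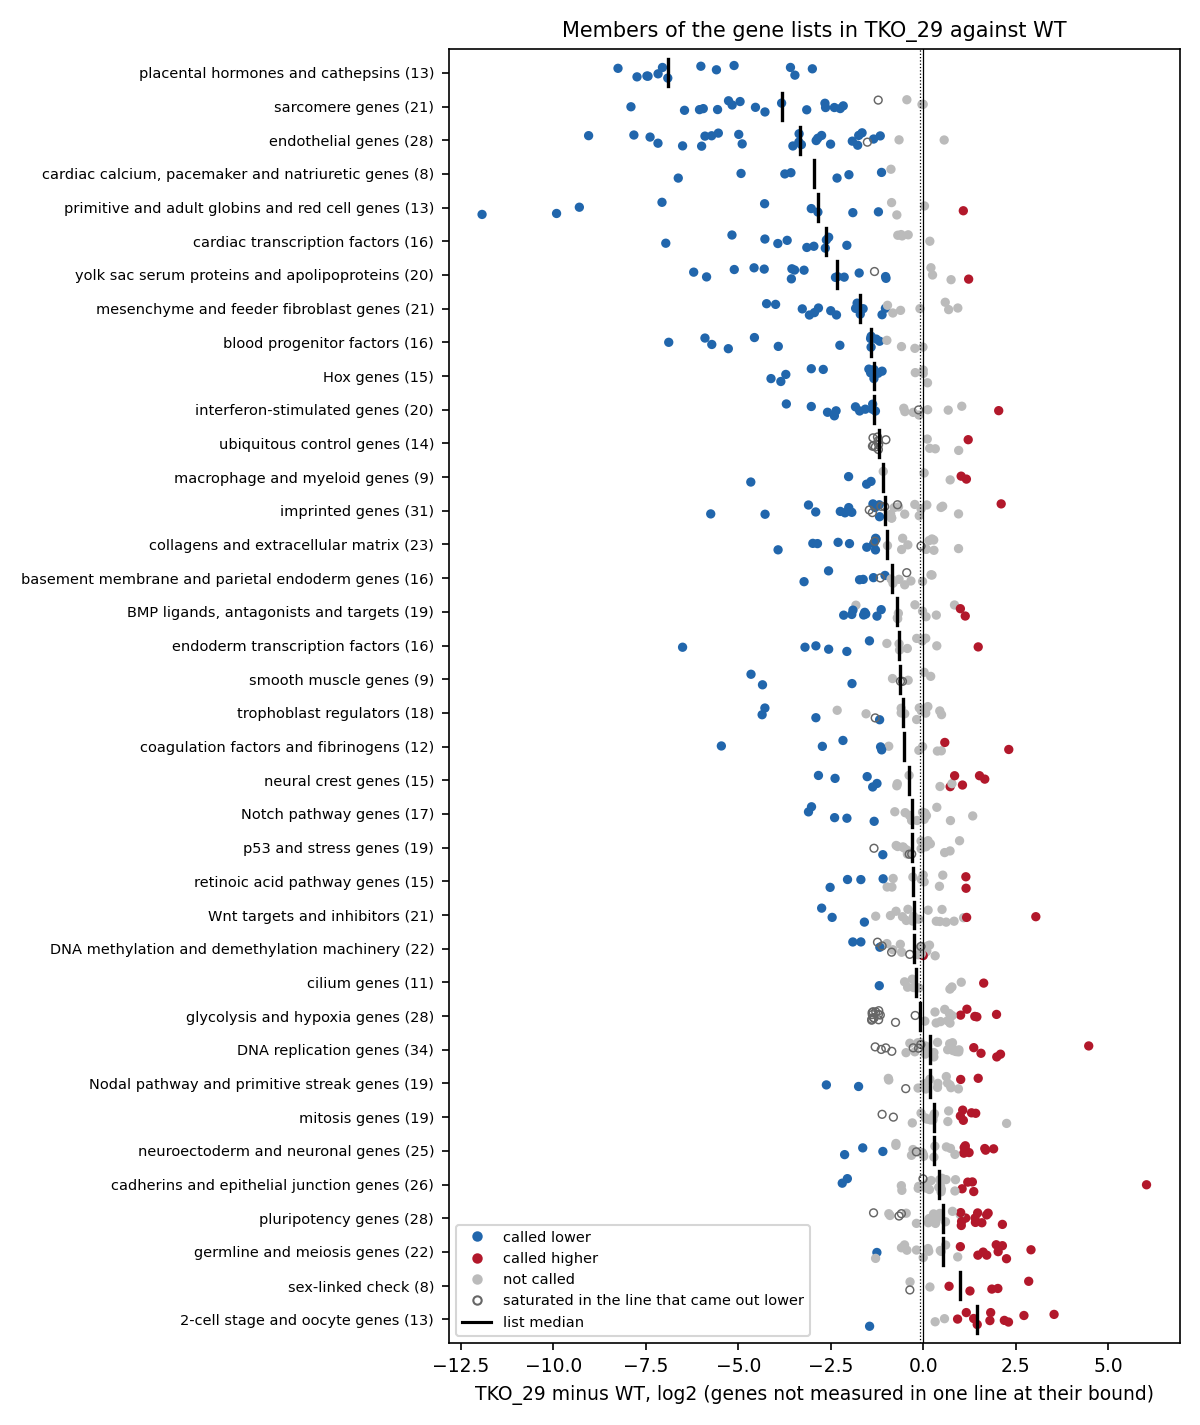
Log2 difference TKO_29 minus WT of every tested member of 38 gene lists, with the number tested in brackets, called members in blue (lower) and red (higher), and a bar at each list's median. Members not measured in one line are drawn at their bound, open circles are saturated in the line that came out lower, and the dotted line is the median of all features, -0.09. Placental, sarcomere and endothelial genes lie far to the left and genes of the oocyte and 2-cell embryo to the right.

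By chromosome, genes of chromosome 8 were shifted upward. Over 11363 genes measured on all 4 arrays without saturation, the median difference was -0.03. It was 0.45 for the 585 genes of chromosome 8 and between -0.13 and 0.02 for each other autosome and chromosome X. On chromosome 8 19.5% of genes were called higher, beside 7.33% over all chromosomes, and 8.38% lower, beside 12.3%, and 72.1% lay above 0. The shift was present on each array, with medians of 0.40 and 0.48 for TKO_29 replicates 1 and 2. TKO_26 gave 0.45 against the same WT arrays, and a shift of the WT line and one of both TKO lines cannot be told apart. Of the 12 largest rises Cdh1, Nek1 and Tex15 lie on this chromosome, and of the 12 largest falls Hand2. Sgo2b, among the largest bounds of a rise, lies there as well. Among sex-linked genes, Ddx3y and Eif2s3y of the Y chromosome rose 7.23-fold and 4.05-fold and the X-linked Eif2s3x and Kdm6a 3.62-fold and 2.40-fold, all 4 above background in WT too. Uty rose at least 1.62-fold, a call lost without either TKO_29 array, and Kdm5c (0.18), Zfx (-0.36) and Ddx3x, which was saturated, were not called.

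**Figure D4:**
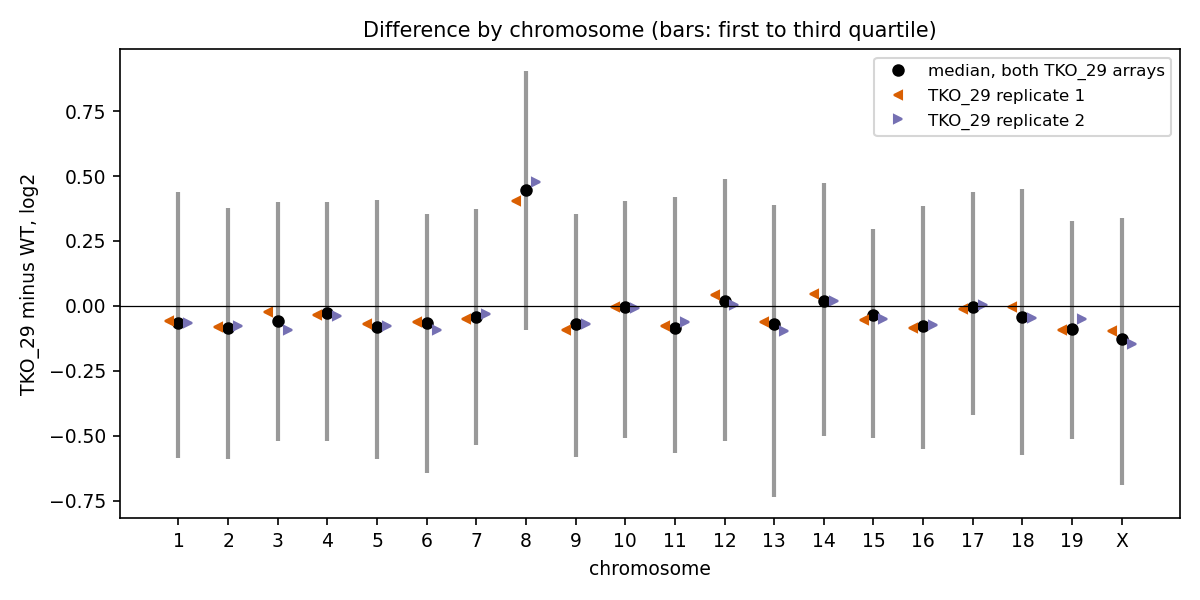
Median log2 difference TKO_29 minus WT by chromosome (black points), with grey bars from the lower to the upper quartile of the genes and the medians of TKO_29 replicates 1 and 2 as triangles. Chromosome 8 stands at 0.45, with its replicates at 0.40 and 0.48, and all others lie between -0.13 and 0.02.

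TKO_29 was then set against the other knockout line. No gene was called between TKO_29 and TKO_26 by limma (0.0% of 21393), the lowest adjusted p being 0.0558, and 4773 had an unadjusted p under 0.05, of which 1135 differed at least 2-fold. The SD over genes of the difference between the line means was 0.50. Between single arrays it was 0.38 in TKO_26 and 0.23 in TKO_29. These are unlike measures, since a mean of 2 arrays varies less than a single array. Leaving out TKO_26 replicate 2 gave 911 calls, and alternatives gave from 0 to 471. The features had been chosen by signal in WT or TKO_29, so genes with signal in TKO_26 alone were not tested. The absence of calls therefore does not show that the lines were alike.

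Among named genes tested and above background on all 4 TKO arrays, the largest differences between the lines were falls in TKO_29. Syt10, a synaptotagmin, lay at -4.91 and -5.36 in TKO_29, at 0.35 and -0.79 in TKO_26 and at -0.19 and -1.04 in WT (difference of the TKO lines -4.91, SE 0.49). The histone gene H2bc18, the retinol dehydrogenase Rdh12 and the spliceosomal RNA gene Rnu2-10 differed by -2.95, -2.75 and -2.64 between the lines. All 4 fell in TKO_29 against WT, Rnu2-10 with a call lost without any 1 of the 4 arrays, and their TKO_26 differences from WT were 0.40, -0.09, 0.15 and 0.65. In the other direction Cntrl (2.01), Rnu12 (1.92) and Ddx50 (1.91) stood out through a low signal on TKO_26 replicate 1 alone. Pxmp4 was lower on both TKO_26 arrays, at -5.34 and -4.97, than in TKO_29, at -3.23 and -3.39 (difference 1.84).

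**Figure D5:**
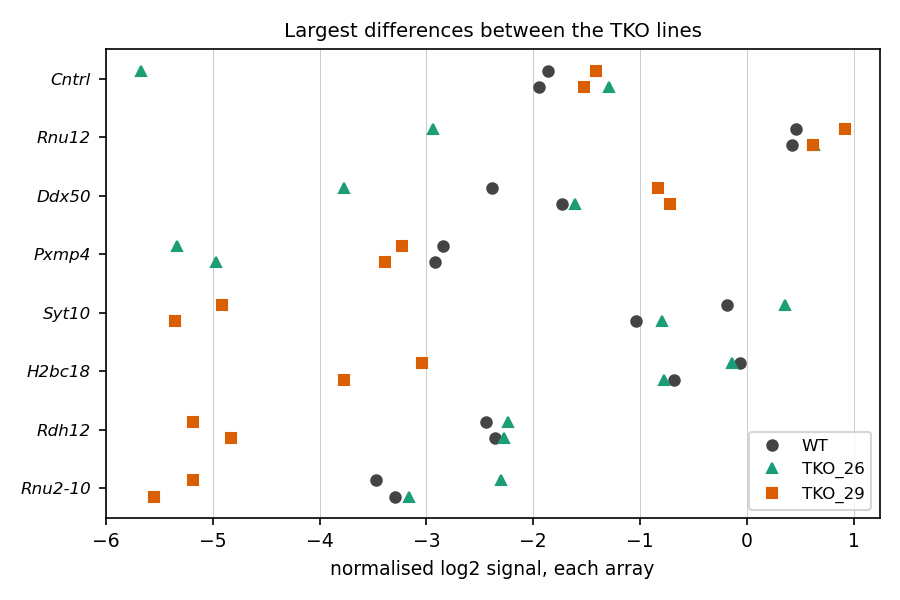
Normalised log2 signal on each array of WT (circles), TKO_26 (triangles) and TKO_29 (squares). Shown are the 4 genes most above and the 4 most below TKO_26 in TKO_29, among named genes above background on all 4 TKO arrays. Both TKO_29 arrays of Syt10, at -4.91 and -5.36, lie apart from the other 4 arrays, while for Cntrl, Rnu12 and Ddx50 TKO_26 replicate 1 lies apart.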

How the data were processed

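Cy3-labelled cRNA of each sample was read on a 1-colour Agilent array, per the labels' protocols. Per the file headers, Feature Extraction 10.5.1.1 gave each spot's processed signal, an intensity corrected for background. A value table of log2 signals was also deposited, here called the authors' matrix, and how it was made is not stated by the labels or headers. Its columns correlated with the unscaled log2 median signals of their arrays (r 0.995 to 1.00), but that of TKO_29 replicate 1 matched both TKO_29 arrays about equally (0.9962 and 0.9963). Column medians were 6.86 to 6.89, so values are not centred per gene, and the normalisation remains unknown.

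Control spots and outlier flags were left out (263 of 55681 probes lost), saturated spots were kept and repeated spots averaged. Probes were named by accession through a RefSeq table of assembly GRCm38.p6, and 49.4% had a symbol. A feature was tested if well above background on both WT arrays or both TKO_29 arrays, and the brightest probe stood for a gene (4932 genes had several). The fit used limma 3.58.1 in R 4.3.3 on 6 arrays in 3 groups, leaving 3 residual degrees of freedom. Calls required 2-fold and an adjusted p (Benjamini-Hochberg) under 0.05. A bound sets the brighter line's mean against the dimmer line, in which each array counts with its lowest signal that exceeds background, or with the probe's signal where that is higher. On simulated data for TKO_29 against WT (21393 genes, 200 changed, 5 draws) the fit recovered 14.9%, 61.5% and 86.1% of changes of log2 1, 2 and 4, with 7.2 false calls on average. The simulation had normal noise without a background floor or saturation. Its share of changed genes was far below the 19.4% called in the data, so these rates need not hold for the data.

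Genes were named by rule: the Tet genes, the 12 largest measured changes and 10 largest bounds each way, up to 4 called members of each list with the largest difference, the 4 largest differences each way between the TKO lines, and sex-linked genes. The differences between the TKO lines were ranked among genes above background on all 4 TKO arrays. Clone and predicted names were left out. Some genes that the rule covers are not reported here. Other list members were chosen after their values were seen. Members, lists and tests were chosen with earlier results of these data known. The planned comparison of promoters was void. The median signal replaced the mean signal in the normexp alternative. The number of arrays limits the precision.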

Additional observations from a re-analysis of the deposited data

How the results depend on the processing

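The calls compare arrays of 1 line each, and no alternative can supply the spread between lines of a genotype. Of 3137 values for 178 named genes over all alternatives, 2971 kept their direction and side of the threshold, 157 lost the call, 4 gained it and 5 reversed. Reversed were Ddx3x (0.24 with quantile normalisation, 0.19 with normexp, 0.28 with the authors' matrix), Kdm5c (-0.0041 without WT replicate 2, and up to 0.37 with another array left out) and Zfx (0.26 with the mean of its probes). The higher calls, 1753 as reported, numbered 1085 with signal required on all 4 arrays and 888 with no filter on dim probes, and 955 to 2039 when 1 array was left out. The lower calls, 2404 as reported, numbered 1473 with normexp, 1602 with the authors' matrix, 3638 at 2-fold with arrays that do not overlap and no p-value (saturated features included), and 1716 to 2509 when 1 array was left out. Between the TKO lines the calls, 0 as reported, numbered 1 with the percentile over all probes, 245 with the authors' matrix, 326 with signal on all 4 arrays and 471 with a variance trend, and 0 to 911 when 1 array was left out. The median of all features moved by 0.15 with quantile normalisation, 0.16 with the matrix, 0.13 with normexp and -0.54 with no filter. With the replicate block 1709 were higher and 2286 lower, but array deviations of WT and TKO_29 correlated at -0.159, so the numbers do not pair the arrays. With the crossed replicate block, chosen after seeing the data, 1809 were higher and 3374 lower. The chromosome 8 median, 0.47 above that of all genes, ranged from 0.42 to 0.51. Of 1368 list counts 179 moved by over 1.5 times. Changes near the background and the saturation ceiling are the least certain, and the cause of the moved counts was not tested.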

Other observations

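Cilium, stress and coagulation genes were described outside the main comparisons. Of 11 cilium genes tested 1 rose and 1 fell (9.09% each, median -0.21), near the 8.19% and 11.2% of all features. Pifo, of the primary cilium, lay at -6.35 and -6.19 in WT and at -4.43 and -4.83 in TKO_29 (3.11-fold higher). The dynein gene Dnaic1 was 2.28-fold lower. Of 19 p53 and stress genes 1 fell (5.26%, beside 11.2% of all features), the cell cycle inhibitor Cdkn1a (2.13-fold). Its call was lost without 3 of the 4 arrays in turn and with the mean of its probes. The other probe differed by -0.58. In the coagulation list 5 of 12 fell and 2 rose, 41.7% and 16.7% beside 11.2% and 8.19% of all features. Of these 12, 8 were above background on all 4 arrays, 1 on no TKO_29 array and 1 on no WT array. The filter fixed the direction of the last 2. For 1 of the rises the bound was under 2-fold. Fibrinogen beta, Fgb, lay at -3.00 and -2.87 in WT and at -8.25 and -8.53 in TKO_29, 44.0-fold lower, plasminogen, Plg, was at least 6.62-fold lower and kininogen, Kng1, 4.97-fold higher. Pros1 fell 4.50-fold, a call lost without WT replicate 1, WT replicate 2 or TKO_29 replicate 1.

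Of 14 genes that most cells express 11 were saturated on an array. Of the 14, 1 was called higher (7.14%, beside 8.19% of all features) and none lower (median -1.21, and 0.96 over the 3 without saturation). Among those 3, Tbp (0.11) and Ywhaz (0.96) were not called.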
